A study of Danio rerio with 6 samples.

Results

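The genes described here belong to the amino acid stress response, the program that cells switch on when amino acids run short or when unfolded protein builds up. A list of 8 names was set (trib3, ddit3, asns, chac1, atf3, xbp1, sesn2 and ddit4), and the members are the genes whose symbol in the deposited gene table matches a name, ignoring case. This gave 7 members of the 21589 genes in the table: trib3, ddit3 (written DDIT3 there), asns, chac1, atf3, xbp1 and sesn2. No entry carries the symbol ddit4. The reference table of names gives DDIT4 to an entry the authors list as zgc:64114 (ENSDARG00000037618), and its values are given beside the members without counting it as one. All 7 members passed the filter on low counts. The names were chosen by pathway with the measured differences between transgenic and wild-type livers in these libraries already known, so those values are given for the members as a description and nothing is inferred from them.

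The RNA was liver RNA of zebrafish (Danio rerio) larvae, 7 days after fertilization. The controls were wild-type siblings, with 3 libraries, and the other group carried a foxn3 transgene, also with 3 libraries. foxn3 encodes a forkhead-box transcription factor, and the labels call the second group a foxn3 overexpression. The promoter of the transgene, the number of livers pooled in a library and the number of founder lines are not stated by the labels. Nothing says that replicate libraries were made from different clutches, so a p-value here reflects only how far these samples spread, and that spread may be technical.

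In this response, the kinases GCN2 (short of amino acids) and PERK (under stress of the endoplasmic reticulum, ER) phosphorylate the translation factor eIF2. Most protein synthesis then slows, while the transcription factor ATF4 is made and turns on genes that supply amino acids, change redox state or, when the stress lasts, favour cell death. Most of the members are known as ATF4 targets in mammals. xbp1 belongs to a neighbouring branch, in which the sensor IRE1 splices the xbp1 message and the protein made from it raises the ER folding capacity. The liver makes and secretes much of the plasma's protein and breaks down much of the amino acid supply, and both branches are well known there.

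Total counts ranged from 7732478 to 12550954 per library. Levels between libraries are given as CPM, counts relative to the library total (the usual count-per-depth unit) after scaling by the trimmed mean of M-values (TMM), and the scaling factor was lowest in transgenic library 2, at 0.848 against 0.967 to 1.07 in the others. The transgene's own gene, foxn3, held 246 to 322 counts in the wild-type libraries, and all transgenic libraries were above them with 1983 to 2540. The 15 hepatocyte markers measured took 8.91 to 10.01% of wild-type and 9.36 to 10.2% of transgenic counts, and 1 of them was at 0 in some library. fabp10a, apoa1b, apoa2 and apoba of that list matched no entry and are not in this share. The 9 intestine markers, none at 0 in any library, took 0.701 to 0.799% of wild-type and 0.627 to 0.818% of transgenic counts. The 19 exocrine pancreas markers took 0.362, 0.812 and 0.407% of the counts of wild-type libraries 1 to 3 and 0.549, 1.26 and 0.881% of transgenic libraries 1 to 3, and none of them was at 0 in any library. All 18 exocrine markers tested had positive log2 fold changes (median 0.88, 6 at an unadjusted p under 0.05 in edgeR's test). The 9 islet markers, none at 0 in any library, took 0.0023 to 0.0047% of wild-type and 0.0030 to 0.0094% of transgenic counts, with 6 positive and 3 negative values (median 1.43, 5 at an unadjusted p under 0.05, all higher in transgenic livers). By the same test, 0.869% of all genes tested were higher in transgenic livers at an unadjusted p under 0.05. Positive values were held by 50.6% of all genes tested. At a Benjamini-Hochberg adjusted p under 0.05, 0 of these markers were called. The part of exocrine, islet or intestine RNA in the members' levels was not tested. In whole liver RNA, fewer cells of a type and less RNA per cell cannot be told apart.

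Levels of different genes can be compared only per length, and for this the authors' FPKM (counts divided by the exon length and by the reads counted in the library) was used. The 8 genes spanned more than 100-fold per length. chac1 was the most abundant on average, at 291 FPKM over the 6 libraries. It encodes an enzyme that degrades glutathione. Among all 21589 genes it ranked 280, 192 and 430 by FPKM in wild-type libraries 1 to 3 and 368, 362 and 758 in transgenic libraries 1 to 3. xbp1 followed at 155 FPKM and ranked between 477 and 624. The order of these neighbours held in 5 of 6 libraries and was turned in transgenic library 3, where chac1 stood at 96.5 and xbp1 at 137 FPKM.

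All other genes of the group lay far lower per length. xbp1, at 120 FPKM or more in each library, was separated from the next gene, ddit4, at no more than 28.2 FPKM. ddit4 averaged 16.035, trib3 14.0, asns 9.20, ddit3 7.96 and sesn2 5.98 FPKM. Between neighbours in this stretch the ranges over libraries overlapped. asns stood above ddit3 in only 3 of 6 libraries, ddit4 above trib3 in 4 and ddit3 above sesn2 in 4, so their order is not set by these data. atf3 was lowest, at 0.797 to 2.11 FPKM, below the lowest sesn2 value of 3.65 FPKM.

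**Figure D1:**
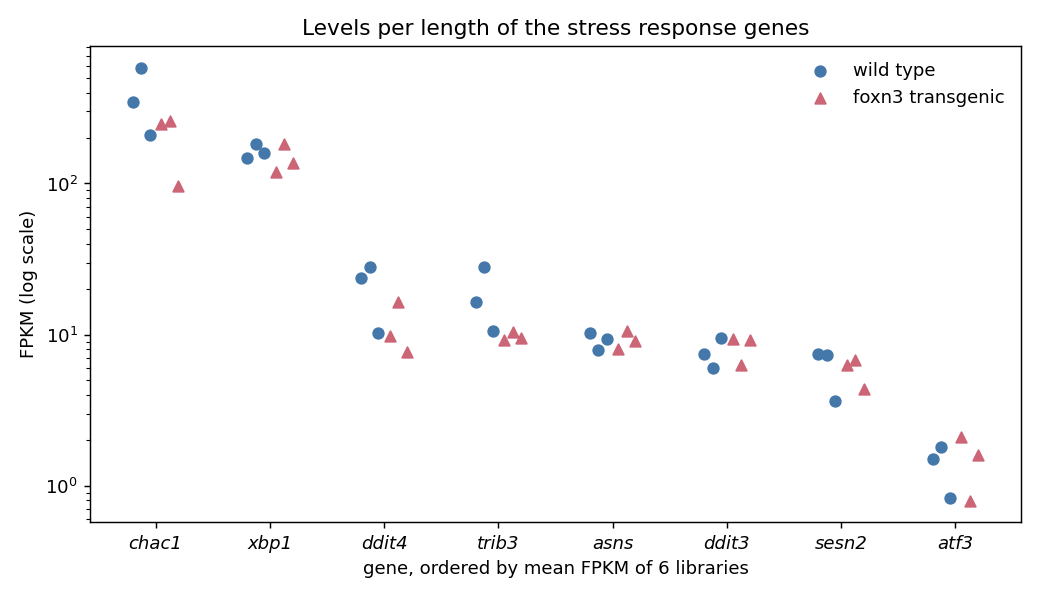
FPKM, on a log axis, of the 7 members and ddit4, ordered by their mean over 6 libraries, with circles for wild-type and triangles for foxn3-transgenic libraries. chac1 and xbp1 stand at 96.5 FPKM or more in each library, and atf3 is at 2.11 FPKM or less in each.

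trib3 encodes a pseudokinase that ATF4 and CHOP turn on and that dampens ATF4 itself and AKT signalling in mammals. It lies on chromosome 11 (24994382 to 24999045, plus strand, Zv9). Wild-type libraries 1 to 3 held 391, 745 and 179 trib3 counts, or 34.9, 57.3 and 24.0 CPM. Transgenic libraries 1 to 3 held 227, 285 and 226 counts, or 19.2, 26.8 and 19.5 CPM. Wild-type libraries 2 and 1 were the highest, and transgenic library 2 lay above wild-type library 3, so the groups overlapped. On the FPKM scale, which has no TMM scaling, the wild-type values were 16.5, 28.0 and 10.6 and the transgenic values 9.17, 10.4 and 9.52. There the groups did not overlap, which 5.64% of the genes tested share on that scale (4.14% with the transgenic libraries below). Wild-type livers averaged 38.7 ± 17.0 CPM and transgenic livers 21.8 ± 4.30 (SD, n = 3 each), and the log2 fold change, transgenic minus wild type, was -0.83 ± 0.30 (SE), a level 1.78-fold higher in wild-type livers.

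chac1 (chromosome 20, 28296498 to 28299069, plus strand, Zv9) had the widest spread of the group. It stood at 530, 860 and 337 CPM in wild-type libraries 1 to 3. Transgenic libraries 1 to 3 stood at 373, 478 and 142 CPM. These values rest on 1644 to 11177 counts, so counting error is a small part of the spread. Wild-type library 2 was the highest and transgenic library 3 the lowest, a 6.05-fold range, while the median gene tested had a 1.81-fold range (interquartile range 1.495 to 2.52). The range of chac1 was wider than that of 96.8% of genes. Wild-type livers averaged 575 ± 265 CPM and transgenic livers 331 ± 172 (SD, n = 3 each). The groups overlapped, and the log2 fold change was -0.80 ± 0.45 (SE).

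ddit4 encodes REDD1, which restrains the growth kinase complex mTORC1 and is induced by hypoxia, glucocorticoids and ATF4 in mammals. Its entry lies on chromosome 12 (49633437 to 49635557, plus strand, Zv9). The wild-type libraries stood at 31.5, 36.0 and 14.3 CPM and the transgenic libraries at 12.8, 26.4 and 9.86 CPM. As for trib3, wild-type libraries 1 and 2 and transgenic library 2 were the 3 highest. The log2 fold change was -0.75 ± 0.41 (SE), and the groups overlapped.

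sesn2 encodes sestrin 2, a leucine sensor that keeps mTORC1 off when leucine is low in mammals. It lies on chromosome 19 (45226142 to 45242485, minus strand, Zv9). It stood at 15.8, 15.2 and 8.30 CPM in wild-type and 13.3, 17.5 and 9.08 CPM in transgenic libraries, or 62 to 198 counts. The third library of each group was the lowest. Transgenic library 2 was the highest in CPM. On the FPKM scale, which has no TMM scaling, wild-type libraries 1 and 2 (7.40 and 7.38) stood above it (6.75). The group means were 13.1 ± 4.18 and 13.3 ± 4.21 CPM (SD, n = 3 each). The log2 fold change was 0.01 ± 0.31 (SE) with TMM and -0.09 with unscaled library totals, so it has no set direction.

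asns encodes asparagine synthetase, which makes asparagine from aspartate and glutamine and is a textbook target of ATF4. It lies on chromosome 19 (26140027 to 26163667, minus strand, Zv9). Its level was 57.1, 42.7 and 55.7 CPM in wild-type and 44.0, 71.9 and 49.0 CPM in transgenic libraries. Transgenic library 2 was the highest and wild-type library 2, where trib3 and chac1 peaked, the lowest. The log2 fold change of asns was 0.09 ± 0.23 (SE), and -0.17 without transgenic library 2.

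xbp1 (chromosome 5, 17718233 to 17722743, minus strand, Zv9) stood at 341, 409 and 388 CPM in wild-type and 273, 510 and 305 CPM in transgenic libraries. Transgenic library 2 was again the highest in CPM, and the other transgenic libraries lay below all wild-type libraries. On the FPKM scale, which has no TMM scaling, wild-type library 2 was the highest for xbp1, at 183 against 182 in transgenic library 2. The log2 fold change of xbp1 was -0.07 ± 0.26 (SE), and -0.41 without transgenic library 2. That library also held the most exocrine pancreas RNA (1.26% of counts) and had the lowest TMM factor. The part of either in the asns and xbp1 levels was not tested. The counts are of whole genes and do not tell the spliced from the unspliced xbp1 message.

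ddit3 encodes CHOP, the transcription factor of the response tied to cell death. It lies on chromosome 6 (58818529 to 58821727, plus strand, Zv9). Wild-type libraries stood at 10.1, 7.85 and 13.7 CPM and transgenic libraries at 12.5, 10.3 and 12.0 CPM, from 102 to 148 counts. Wild-type library 2 was the lowest, the reverse of its place for trib3 and chac1. The log2 fold change was 0.15 ± 0.24 (SE), and -0.03 without wild-type library 2. atf3, an early stress-induced factor of the same bZIP family, lies on chromosome 20 (37819240 to 37825345, plus strand, Zv9). It had only 18 to 67 counts, at 4.11, 4.77 and 2.41 CPM in wild-type and 5.66, 2.63 and 4.24 CPM in transgenic libraries. Its log2 fold change was 0.13 ± 0.35 (SE), and -0.15 without transgenic library 1, so at this depth no direction was detectable.

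**Figure D2:**
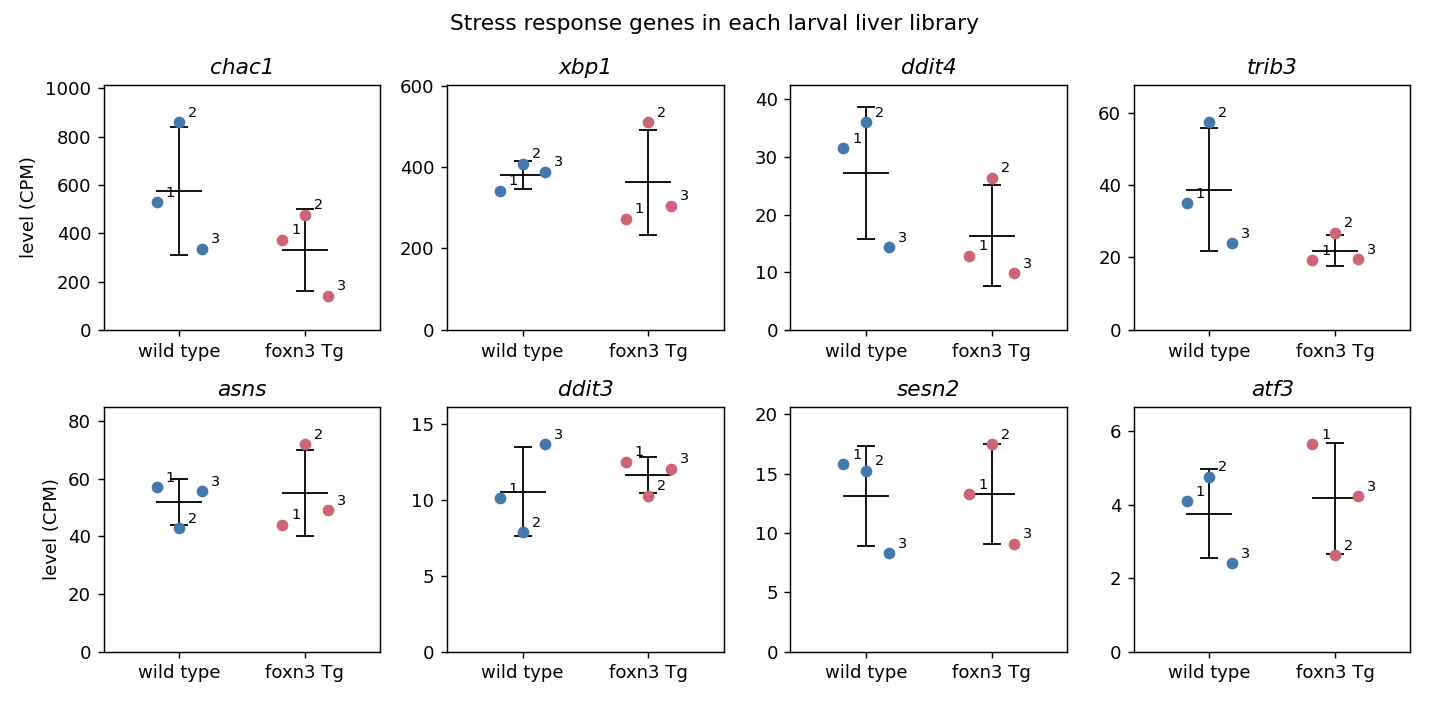
CPM of the 7 members and ddit4 in each library, with the library number beside each point and the mean ± SD of 3 libraries as bars. Wild-type library 2 is highest for chac1, trib3 and ddit4 and lowest for asns and ddit3, and transgenic library 2 is highest for xbp1, asns and sesn2.

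Between the groups, 4 of the 7 members had positive and 3 negative log2 fold changes, with a median of 0.01 that is the value of sesn2, against 0.0037 over all 19573 genes tested (-0.09 and -0.05 with unscaled library totals). The quasi-likelihood test of edgeR, adjusted by Benjamini-Hochberg, called 0 of the 7 at an adjusted p under 0.05, where 0.0% of all genes were called. At an unadjusted p under 0.05, 1 of the 7 was counted, trib3, where 2.25% of genes were (0.869% higher and 1.38% lower in transgenic livers). For 0 of the 7 were the groups apart in CPM, where 6.45% of genes had groups apart (3.31% with the transgenic libraries above and 3.15% below). Since the members were picked with this contrast in view, nothing is read from these counts. The 170 higher and 271 lower genes at that unadjusted p became 91 and 309 with unscaled library totals. In the authors' deposited table the log2 ratios were -0.62 for trib3, -0.53 for chac1, -0.49 for the ddit4 entry, 0.11 for ddit3, 0.09 for atf3, 0.07 for asns, -0.05 for xbp1 and 0.01 for sesn2.

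trib3, chac1 and ddit4 kept a negative log2 fold change without each library in turn, while their size depended on single libraries. Without wild-type library 2 the value for trib3 was -0.43, for chac1 -0.39 and for ddit4 -0.50. Without transgenic library 2 chac1 was at -1.17 and ddit4 at -1.28. Without transgenic library 3 chac1 was at -0.43 and ddit4 at -0.48, and without wild-type library 3 trib3 was at -1.08. The sign of each of the other 5 genes turned when some single library was left out.

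**Figure D3:**
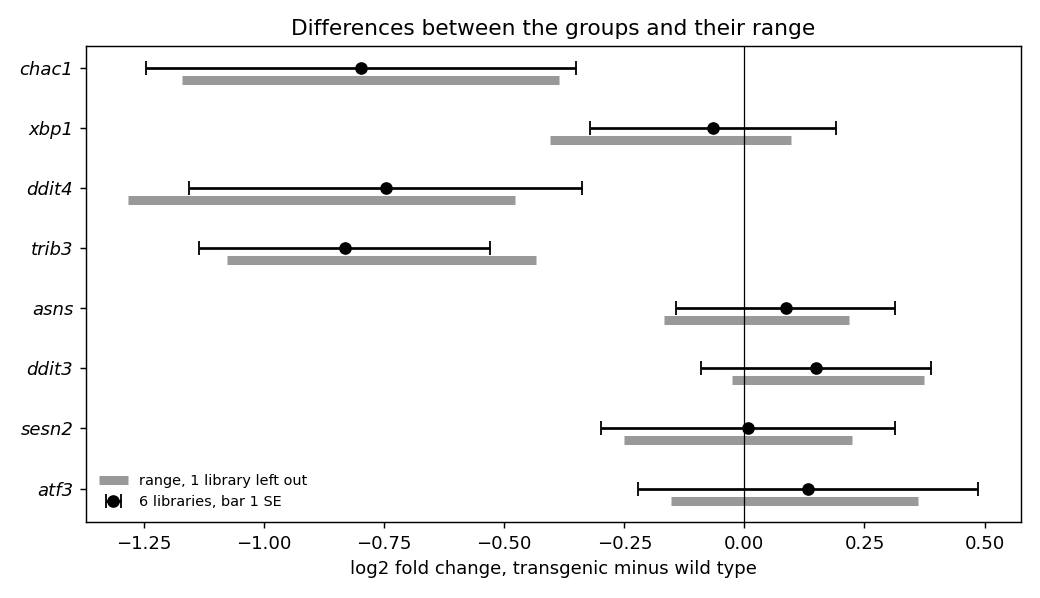
Log2 fold change, transgenic minus wild type, of the 7 members and ddit4 (points, bars 1 SE), with the range of the values when 1 library is left out in grey. The ranges for chac1, trib3 and ddit4 lie below 0, from -1.28 to -0.39 in all, and the ranges of the other 5 genes include 0.

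The genes did not share one order of libraries. Over the 28 pairs of the 8 genes, chac1 and ddit4 followed each other most closely by permutation p, with Pearson r = 0.90 of log2 CPM over 6 libraries (exact permutation p = 0.0028, adjusted p = 0.078 over 28 pairs) and Spearman rho = 0.94 (exact p = 0.017, adjusted p = 0.23). Without the 2 libraries farthest from the median of chac1, r was 0.95. trib3 and ddit4 had r = 0.89 (exact permutation p = 0.0083, adjusted p = 0.12) and rho = 0.94 (exact p = 0.017, adjusted p = 0.23), and r was 0.88 without the 2 libraries farthest from the median of trib3. trib3 and ddit3, whose proteins are linked in one pathway, ran opposite ways, with r = -0.90 (exact permutation p = 0.018, adjusted p = 0.17) and rho = -0.83 (exact p = 0.058, adjusted p = 0.33). Its r was -0.45 without wild-type libraries 1 and 2, the farthest from the median of trib3, and -0.99 within the 3 libraries of each group. asns had r of -0.15 with trib3 and -0.01 with chac1 (exact permutation p = 0.743 and 0.996, with adjusted p of 0.905 and 0.996; rho 0.09 and -0.09, with an exact p of 0.92 and an adjusted p of 0.99 for each). Without wild-type libraries 1 and 2, r of trib3 and asns came to 0.96, and without wild-type library 2 and transgenic library 2, r of asns and chac1 came to 0.35, so no relation is set by these data. None of the 28 pairs passed an adjusted p of 0.05.

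To rank other genes by likeness to the members' mean, the 7 members' standardised log2 CPM values were averaged in each library. Since the members did not share the same order of libraries, a gene like this mean is not like each member. This mean was 0.27, 0.33 and -0.25 in the wild-type libraries. In the transgenic libraries it was -0.19, 0.47 and -0.62, with transgenic library 2 highest and transgenic library 3 lowest. Transgenic library 2 had the lowest TMM factor (0.848), and its part in that high mean was not tested. Among other genes of at least 5 CPM on average, the 5 most like it by Pearson r over the 6 libraries were G6PC, CNST, cdkn1a, cnnm2b and tob1b, each at r = 0.99, and 152 of the 11657 genes ranked exceeded r of 0.9. G6PC encodes glucose-6-phosphatase, the last enzyme of glucose release. It stood at 2554, 3002 and 1607 CPM in wild-type and 1689, 3625 and 874 CPM in transgenic libraries. cdkn1a, which encodes the cell cycle inhibitor p21, ran from 10.6 CPM in transgenic library 3 to 88.2 in wild-type library 2.

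For trib3 alone, the 5 most like were mych, zgc:153923, map3k5, gys1 and nfe2, each at r = 0.98. mych, a zebrafish myc family gene, stood at 38.2, 119 and 17.1 CPM in wild-type and 12.6, 32.7 and 10.98 CPM in transgenic libraries. gys1, which encodes a glycogen synthase, ran from 18.0 CPM in transgenic library 1 to 29.7 in wild-type library 2. Both peaked, like trib3, in wild-type library 2, which their choice by likeness to trib3 over these libraries makes likely.

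**Figure D4:**
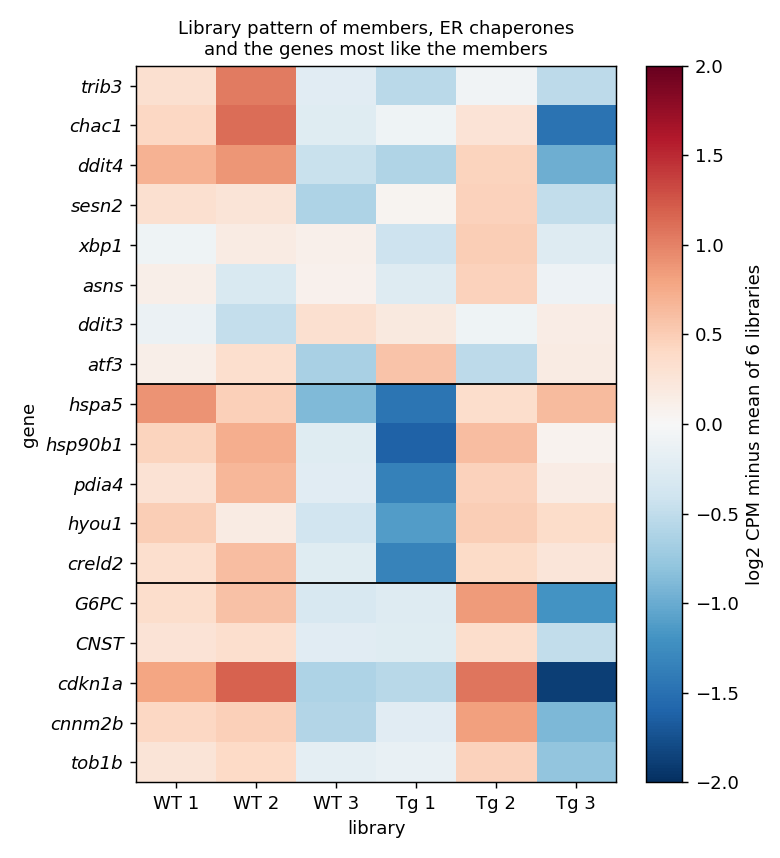
Log2 CPM of each gene minus its mean over the 6 libraries (colour), for the 7 members and ddit4 (top block), 5 ER chaperone and folding genes, all but hspa5 named after their values were seen (middle block) and the 5 genes most like the members' mean (bottom block). trib3, chac1 and ddit4 are high in wild-type libraries 1 and 2. The 5 ER genes shown are lowest in transgenic library 1, as are many other ER genes of the list, such as pdia3 and canx, but not all. The share of all genes tested that are lowest there was not counted.

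Other genes of the pathway were taken from lists that hold none of the 8 genes above. 0 genes of these lists were called by edgeR's quasi-likelihood test at a Benjamini-Hochberg adjusted p under 0.05, each having an adjusted p of 0.9999 or more, and the share of all genes at an unadjusted p under 0.05 is the 2.25% given above. Among 19 transcription factors, phosphatase subunits and paralogs of the members, 9 had positive and 10 negative log2 fold changes, at a median of -0.11. Of the genes of ATF4 itself, atf4b1 had 0.22 ± 0.24 (SE) and atf4b2 0.08 ± 0.19. atf4b1 stood at 23.7, 39.6 and 29.2 CPM in wild-type and 27.8, 40.6 and 39.7 CPM in transgenic libraries. PPP1R15A encodes GADD34, which leads the phosphatase that reverses eIF2 phosphorylation, and had -0.48 ± 0.28. 2 genes of this list had an unadjusted p under 0.05, both lower in transgenic livers. One JDP2 entry, for a bZIP repressor, had -1.21 ± 0.38 at no more than 2.23 CPM, while the other JDP2 entry had 0.35 ± 0.42. trib2 had -0.49 ± 0.22.

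Among the paralogs, trib1 peaked, like trib3, in wild-type library 2, at 19.6 CPM against 6.57 to 10.6 CPM in the other libraries, with a log2 fold change of -0.61 ± 0.37 (SE). sesn1, at 105 to 185 CPM, had -0.11 ± 0.23, and sesn3, at 28.3 to 59.6 CPM, had 0.45 ± 0.26. sesn1 averaged 36.5 and sesn3 10.6 FPKM, so on average both sestrins stood above sesn2 per length. chac2, the paralog of chac1, averaged 29.8 FPKM, and was highest in wild-type library 1, at 98.7 CPM, with a log2 fold change of -0.16 ± 0.35.

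A list of 14 genes tested held those of eIF2, its kinases and its exchange factor eIF2B, and also gcn1l1 and IMPACT. Of the 14, 12 (85.7%) had positive and 2 negative log2 fold changes, where 50.6% of all genes tested had positive ones. The 2 negative ones were eif2s1 at -0.11 ± 0.19 (SE) and IMPACT at -0.12 ± 0.23. The median of the list was 0.08, and 0.02 with unscaled library totals. It lay between 0.02 and 0.17 when 1 library was left out (transgenic library 2 and wild-type library 3). 0 of the 14 had an unadjusted p under 0.05 in edgeR's test. The PERK gene eif2ak3 stood at 3.90, 5.31 and 2.47 FPKM in wild-type and 3.44, 3.31 and 4.79 FPKM in transgenic libraries (log2 fold change 0.04 ± 0.25, SE). eif2s2, the beta subunit of eIF2, had the smallest p of the list, at 0.45 ± 0.21, and eif2b4 had 0.20 ± 0.18. The groups of eif2s2 overlapped in CPM and not in FPKM, where the groups were apart for 5.64% of all genes tested. The GCN2 gene eif2ak4 matched no entry by table symbol, reference symbol or RefSeq synonym, so it has no values here.

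Of 22 aminoacyl-tRNA synthetase entries, enzymes that load amino acids onto tRNA and of which many are ATF4 targets in mammals, 20 had positive and 2 negative log2 fold changes, at a median of 0.12. Of all genes tested, 50.6% had positive values. The median of the list was 0.05 with unscaled library totals and -0.10 without transgenic library 2. 1 entry had an unadjusted p under 0.05, a LARS entry at 1.13 ± 0.44 (SE) and no more than 3.01 CPM, while the main lars entry had 0.06 ± 0.23 at 36.9 to 64.4 CPM. Of 21 amino acid synthesis genes tested, 16 had positive and 5 negative values, at a median of 0.07. That median was 0.0008 with unscaled library totals and -0.15 without transgenic library 2. 1 of the 21 had an unadjusted p under 0.05, the serine synthesis gene PSPH, at 0.60 ± 0.22. Its transgenic libraries lay above the wild-type libraries in CPM, as was so for 3.31% of all genes tested. phgdh and psat1 of the same pathway had 0.07 ± 0.39 and 0.02 ± 0.29. Of 10 amino acid transporters, 4 had positive and 6 negative values, at a median of -0.07. The glycine transporter gene slc6a9 had an unadjusted p under 0.05, at 0.60 ± 0.24, with 392, 244 and 326 CPM in wild-type and 593, 388 and 478 CPM in transgenic libraries, and its groups overlapped.

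Of 38 ER stress genes tested, 22 had positive and 16 negative log2 fold changes, at a median of 0.04. That median turned to -0.04 with unscaled library totals, where the median of all genes tested also turned, from 0.0037 to -0.05. It was -0.14 without transgenic library 2 and 0.17 without transgenic library 1. 0 of them had an unadjusted p under 0.05 in edgeR's test. edem2 and herpud2, of the degradation of misfolded ER proteins, had the smallest p, at 0.33 ± 0.18 and 0.27 ± 0.16 (SE). For both, the transgenic libraries lay above the wild-type libraries in CPM, as they did for 3.31% of all genes tested. In FPKM the groups were apart for edem2 and overlapped for herpud2. hspa5, the gene of the chief ER chaperone BiP, stood at 177, 132 and 51.4 CPM in wild-type and 34.6, 121 and 147 CPM in transgenic libraries, a 5.11-fold range within both groups together and a log2 fold change of -0.25 ± 0.53. hsp90b1 stood at 353, 426 and 217 CPM in wild-type and 84.3, 396 and 270 CPM in transgenic libraries. hsp90b1, pdia4, hyou1 and creld2 were chosen for naming after their values were seen, and all 4, like hspa5, were lowest in transgenic library 1. Many other genes of the list, among them pdia3, calr, canx, derl1, ern1 and ATF6, were also lowest in that library, while some were not. The share of all genes tested that were lowest in that library was not counted, so nothing is read from this about the list. herpud1 was lowest in wild-type library 3, at 19.9 CPM, and ero1l was highest in transgenic library 1, at 3.72 CPM. The sensor genes ern1 (IRE1), at 17.6 to 35.6 CPM, and ATF6, at 47.9 to 102 CPM, had log2 fold changes of 0.04 ± 0.25 and -0.20 ± 0.29.

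sesn2 and ddit4 act on mTORC1, and 35 genes of that complex, its regulators and amino acid sensing, and its targets were tested. The list also held rictora, which is not a part of mTORC1. Of the 35, 19 had positive and 16 negative log2 fold changes, and 0 had an unadjusted p under 0.05 in edgeR's test. The median was 0.04, and -0.02 with unscaled library totals, where that of all genes tested was -0.05. The entry that the reference names samtor, for a sensor of S-adenosylmethionine, had 0.56 ± 0.27 (SE). RPS6KB1, an entry for the S6 kinase, had 0.53 ± 0.32 at 5.09 to 14.0 CPM. The other S6 kinase entry, rps6kb1, was more abundant, at 29.6 to 51.1 CPM, and had -0.19 ± 0.21.

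ddit4, sesn2 and atf3 are also reached by p53, hypoxia and acute stimuli. Of 28 genes of p53 and hypoxia, 9 had positive and 19 negative log2 fold changes, where 50.6% of all genes tested had positive ones. Their median was -0.13, and it was -0.06 without wild-type library 2 and -0.21 without wild-type library 3. 1 had an unadjusted p under 0.05, gadd45ab, a growth arrest gene. It stood at 21.8, 56.6 and 21.3 CPM in wild-type and 12.2, 13.8 and 17.1 CPM in transgenic libraries, with a log2 fold change of -1.22 ± 0.37 (SE). Its groups did not overlap, with the transgenic libraries below, as was so for 3.15% of all genes tested. Of 26 immediate early genes tested, 5 had positive and 21 negative values, against the same 50.6% of all genes with positive ones. Their median was -0.26, and it was -0.47 when transgenic library 1 or -0.06 when wild-type library 2 was left out. For 3 of the 26 all transgenic libraries lay below the wild-type libraries in CPM, as for 3.15% of all genes tested. 3 had an unadjusted p under 0.05 in edgeR's test, all lower in transgenic livers, as 1.38% of all genes tested were. They were mycb at -1.35 ± 0.33, egr1 at -1.31 ± 0.30 and dusp1 at -0.58 ± 0.23. Immediate early genes took 0.0530, 0.0648 and 0.0393% of the counts of wild-type libraries 1 to 3 and 0.0467, 0.0348 and 0.0423% of transgenic libraries 1 to 3. The share was highest in wild-type libraries 2 and 1, as were trib3, chac1 and ddit4, and its part in their levels was not tested. The skeletal muscle markers were also highest in wild-type library 2, with all 14 detected in each library, at 0.148% of counts against 0.0475 to 0.0892% elsewhere, and their part was likewise not tested.

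**Figure D5:**
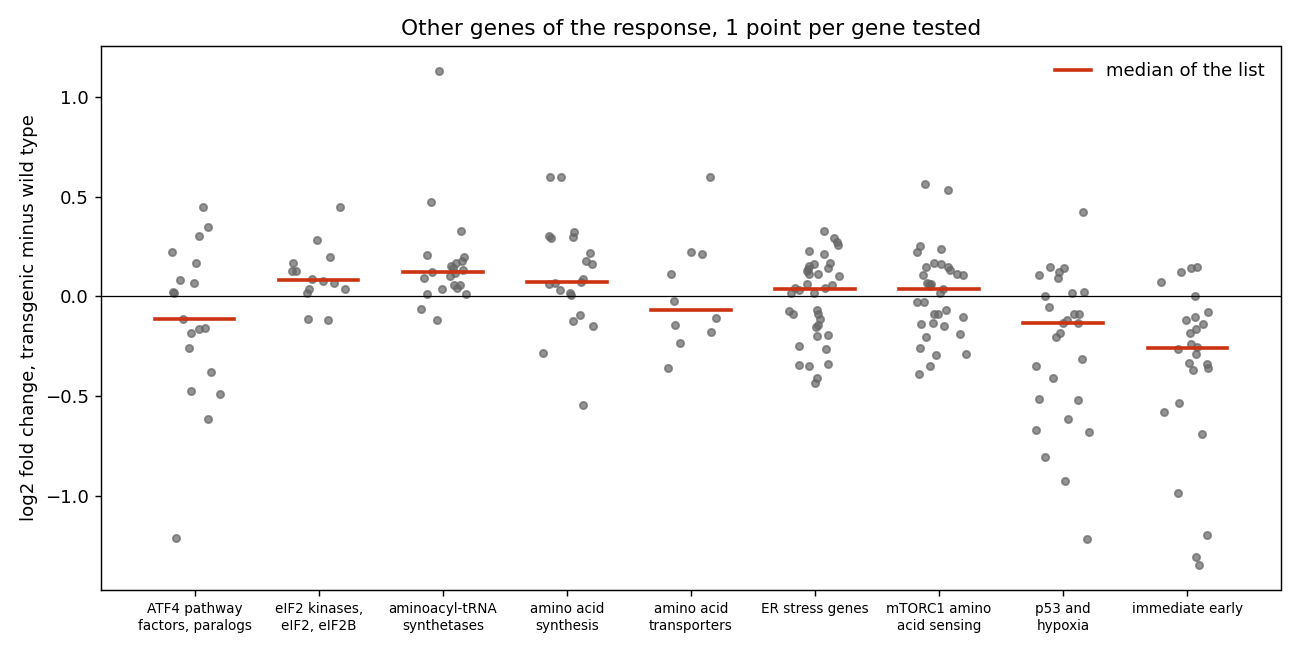
Log2 fold change, transgenic minus wild type, of each gene tested in 9 lists of the response and its neighbours (points), with the median of each list as a line. Medians lie between -0.26 for immediate early genes and 0.12 for aminoacyl-tRNA synthetases.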

How the data were processed

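RNA-seq of 6 liver libraries was analysed from the deposited gene table. Single-end 50-bp reads of stranded total RNA libraries were made, per the labels, and aligned with Novoalign to Zv9, per the submitters' processing notes. The authors counted alignments that overlap a gene by at least 1 bp, per the file headers, and deposited these counts unnormalized. Entries under 10 counts (10508) or over 50000 counts (6) were listed apart by the authors, and 0 of the 8 genes are among them. Use of strand in counting is not stated. No other entry of the table overlaps the 8 genes. The authors' FPKM divides counts by exon length and library total, per the file headers. The deposited log2 ratios, and the deposited scores, which are a multiple of the negative log10 of an adjusted p, are the authors' DESeq2 comparison.

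edgeR 4.0.16 in R 4.3.3 was run on the counts: TMM, filterByExpr, glmQLFit and glmQLFTest, 3 against 3 libraries, Benjamini-Hochberg over 19573 genes. Its log2 fold changes carry standard errors from the F statistic. CPM uses the TMM-scaled total, and log2 CPM for correlations a prior count of 2. The procedure was tested on counts simulated with the same spread setting for every gene. That test does not cover the differences between single libraries seen here. Members and lists (371 names in 9 pathway and 7 marker lists, of which 39 names matched no entry by table symbol, reference symbol or RefSeq synonym) were chosen with earlier results of these data known. By the rule set, genes named from a list have an unadjusted p under 0.05, or the smallest 2 p, or are paralogs or core regulators of the members. Others were named outside that rule, among them hsp90b1, pdia4, hyou1, creld2, herpud1, ero1l, pdia3, canx, phgdh, psat1, the main lars entry and rps6kb1. Alternatives were DESeq2 size factors, unscaled totals, no filter, DESeq2 1.42.0, limma-voom (limma 3.58.1), the replicate number as a block, and leaving out each library. Promoter sequence was not used here. Total counts of 7732478 to 12550954 limit the precision of genes of few reads, such as atf3.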

Additional observations from a re-analysis of the deposited data

How the results depend on the processing

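DESeq2 size factors, unscaled totals, no filter, DESeq2, limma-voom and the replicate block moved each fold change of the 8 genes and each list median by less than 1 SD between libraries of a group. Over all genes edgeR called 0 at an adjusted p under 0.05, and DESeq2's Wald test and edgeR with the replicate block called 1 each, which was foxn3 both times, and limma-voom called 0. With the block, 637 genes had an unadjusted p under 0.05 against 441. The deviations of same-numbered libraries from their group means had r of 0.34, -0.11 and 0.16, against -0.33 to 0.19 for libraries of different numbers. So few values cannot decide whether the numbers pair the libraries. Without single libraries the called genes ran from 0 to 1, the 1 being foxn3 without wild-type library 3. Genes at an unadjusted p under 0.05 ran from 238, without transgenic library 3, to 801, without wild-type library 1, and were 709 without wild-type library 2. Genes whose groups did not overlap ran from 2437 to 3498 against 1263, since fewer libraries overlap less. Medians ran from -0.25 to 0.13 for the members, -0.095 to -0.018 for ATF4 pathway factors, -0.16 to 0.089 for amino acid transporters and -0.039 to 0.014 for mTORC1 genes. Depth limits genes of few counts, such as atf3 and the JDP2 and LARS entries named.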
